A study of Homo sapiens with 30 samples.

Results

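This account covers 6 of the 30 libraries of the series, the RNA of the stress granule fraction and of the cytosol from arsenite-treated WDM cells. The members were taken by their titles, 3 libraries named SGs_WDM_tet_ars and 3 named Cytosol_WDM_tet_ars. The cells are Flp-In T-REx HEK293, an established human embryonic kidney line whose docking site holds a transgene that tetracycline switches on. Here the transgene is GFP fused to TIA1a that carries the Welander distal myopathy (WDM) mutation, and all 6 libraries come from cells given tetracycline and then 0.5 mM sodium arsenite for 60 min. The granule fraction is the high-speed pellet of the lysate pulled down through GFP, and cytosol is the name the titles give to the cell extract. Each granule or cytosol value was set beside 2 further comparisons of the same kind, each of 3 against 3 libraries: cells with wild-type GFP-TIA1a (WT) given tetracycline and the same arsenite, and WDM cells given tetracycline without arsenite. There is 1 line for each protein, so line and mutation cannot be told apart, and the labels describe no removal of the cells' own TIA1. The labels do not say that replicates came from separate cultures, so p-values measure the spread between these samples, which may be technical.

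Total counts ran from 22179071 to 27419145 in the granule libraries and from 13295864 to 16761512 in the cytosol libraries, so a count of 0 allows up to 3 counts, or 0.101 to 0.219 CPM (counts scaled to a common library total). On the first principal component of the 6 libraries, with 86.4% of the variance, granule and cytosol libraries stood apart, and cytosol replicate 1 lay nearer to the granule side (-63.4) than cytosol replicates 2 and 3 (-86.7 and -90.9). TIA1 had 0 counts in the 6 libraries and 3 counts in all 30, so neither the transgene nor the pull-down target could be checked. The 13 kidney and neural markers used to describe HEK293 had a summed level of 888 to 1004 CPM in granule and 1500 to 1628 CPM in cytosol libraries, carried mostly by VIM, CDH2 and LIN28B, while L1CAM was at 0.949 to 2.23 CPM and NEFM at no more than 2 counts in any of the 6 libraries. Markers of muscle, liver, blood, immune and endothelial cells summed to 2.70 to 5.06 CPM, with 2 of 12 at 0 in every library.

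Stress granules are assemblies of RNA and protein that gather in the cytoplasm when oxidative stress stops translation initiation and ribosomes run off mRNAs. TIA1 is an RNA-binding protein of these granules with a known preference for U-rich stretches, often in 3′ untranslated regions (UTRs). P-bodies are a second kind of cytoplasmic granule that holds the mRNA decapping and deadenylation machinery. In granules of HEK-type and other cultured cells, long and poorly translated RNAs are known to be over-represented and short, highly translated ones under-represented.

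Because the bait binds U-rich RNA, the most U-rich 30 bases of the 3′ UTR are shown first for 3 mRNAs that were higher in the granule fraction and 5 that were lower. They are written 5′ to 3′ as DNA letters, with T for U, from the GRCh38 transcripts of GENCODE v44, and capitals mark runs of at least 5 T (motif TTTTT, looked for on the transcript strand only).
KMT2D: ttgtgattttaggtttgTTTTTgttttgtt
PRRC2B: ttttgTTTTTgtttccttttgtttatgttt
DYNC1H1: tgaaTTTTTctttcTTTTTTTTTTTTTTTT
NDUFA4: ttttcttttcTTTTTTcTTTTTTTTTTTTT
SEC61G: tgtatgttttgtgggTTTTTTTTTTTcctt
COX5B: tggtcttatttcttacccgtattctttggt
UBL5: aatcctcatcttcctgccccgctttcctct
GAPDH: ttgtcatgtaccatcaataaagtaccctgt
The windows of the higher mRNAs lie at chr12:49019849-49019878 (minus strand) for KMT2D, chr9:131499889-131499918 (plus strand) for PRRC2B and chr14:102053128-102053157 (plus strand) for DYNC1H1, and hold 21, 23 and 25 U. Those of the lower mRNAs lie at chr7:10932965-10932994 (minus strand) for NDUFA4, chr7:54752297-54752326 (minus strand) for SEC61G, chr2:97648201-97648230 (plus strand) for COX5B, chr19:9830014-9830043 (plus strand) for UBL5 and chr12:6538333-6538362 (plus strand) for GAPDH, and hold 27, 21, 16, 11 and 10 U. NDUFA4, with 27 U in its window, was among the mRNAs most depleted from the granule fraction. Among 13053 tested protein-coding genes with a 3′ UTR of at least 100 bases, 83.5% held TTTTT, against 84.6% of the 913 that were more than 2-fold higher in the granule fraction and 74.4% of the 2014 more than 2-fold lower. A window of 30 bases with at least 20 U was found in 42.2% of all, 50.1% of the higher and 26.3% of the lower genes. These UTRs differ in length, with a median of 1413 bases over all, 2406 in the higher and 610 in the lower genes, and a longer UTR has more places for such a run.

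Most genes differed between the fractions. Of 18141 genes tested, 6586 (36.3%) were higher and 6479 (35.7%) lower in the granule fraction at an adjusted p under 0.05 (edgeR quasi-likelihood test, Benjamini-Hochberg). Differences shown to exceed 2-fold were less even: 1547 genes (8.53%) were higher and 2867 (15.8%) lower by edgeR's glmTreat test, against 864 and 2101 by DESeq2's test of the same threshold. In 6588 genes (36.3%) every granule library lay above every cytosol library, and in 6591 (36.3%) every granule library lay below. The median log2 fold change, granule over cytosol, was 0.06 over all genes, and 90% of genes lay between -2.39 and 1.72. CPM values are shares of a library, so more RNA of 1 gene and less of the others cannot be told apart.

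**Figure D1:**
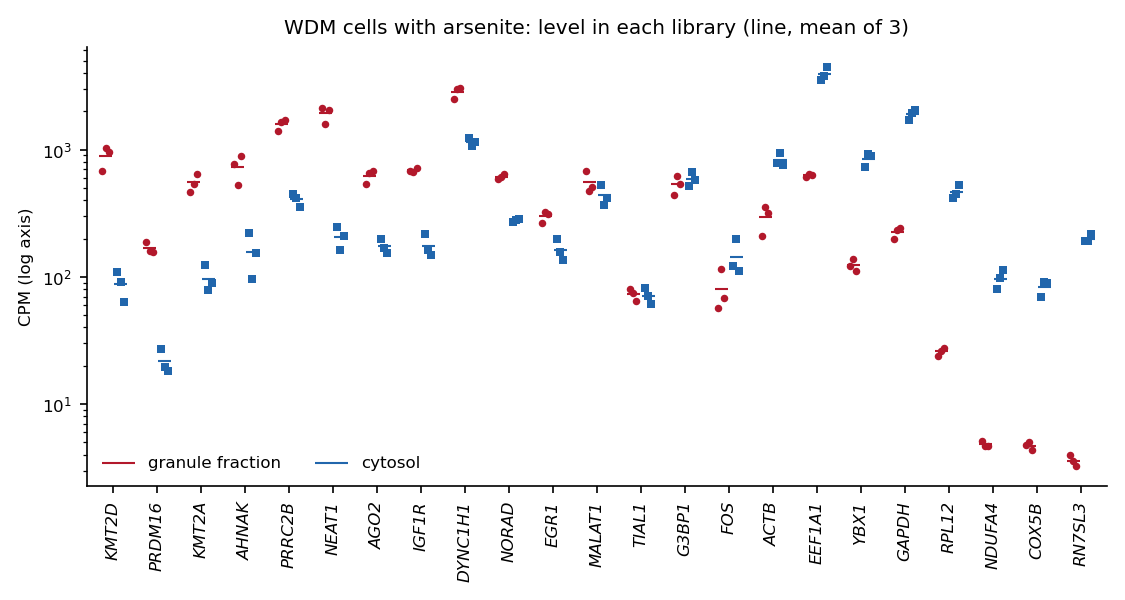
Level of 23 named genes in each of the 6 libraries, as CPM on a log axis. Red circles are granule libraries, blue squares are cytosol libraries and short lines are means of 3, and the genes run from those higher in the granule fraction (KMT2D, 884 ± 186 against 87.9 ± 22.9 CPM) through those not called (MALAT1, TIAL1, G3BP1) to those lower (RN7SL3, 3.60 ± 0.368 against 199.7 ± 13.6 CPM).

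mRNAs of large chromatin regulators, which modify histones or move nucleosomes, were higher in the granule fraction as a group. All 28 tested members of the list were called higher, 14 of them beyond 2-fold, with a median log2 fold change of 1.52 against 0.06 over all genes. This list and those below were chosen with earlier results of these data known, so their counts are descriptions only. For each, the shares over all genes were 36.3% higher and 35.7% lower. KMT2D, a histone H3 methyltransferase (ENSG00000167548, chr12:49018978-49060794, minus strand), had 672, 1023 and 957 CPM in granule replicates 1, 2 and 3 and 109, 90.6 and 63.8 CPM in cytosol replicates 1, 2 and 3. The granule libraries all lay far above the cytosol libraries, granule replicate 1 the lowest of them and cytosol replicate 1 the highest of its group. The means were 884 ± 186 and 87.9 ± 22.9 CPM (SD, n = 3), a log2 fold change of 3.33 (SE 0.444, adjusted p 1.63e-06), and 19.6% of its exon length lies within another gene on the same strand.

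Its relatives KMT2A and KMT2B, which methylate the same histone residue, were also higher. KMT2A had 466, 539 and 648 CPM in granule and 123, 78.3 and 89.1 CPM in cytosol libraries, and KMT2B had 207, 278 and 274 against 58.4, 44.8 and 32.0 CPM. The groups did not overlap for either, and the log2 fold changes were 2.51 (SE 0.357) and 2.49 (SE 0.270). PRDM16, a zinc-finger regulator of brown fat and stem cells (ENSG00000142611, chr1:3069168-3438621, plus strand), had 187, 158 and 155 CPM in granule and 27.0, 19.6 and 18.3 CPM in cytosol libraries. That is a log2 fold change of 2.95 (SE 0.267, adjusted p 7.60e-10), with the granule replicates close together. The smallest difference in the chromatin list was that of SMARCA2, an ATPase of the SWI/SNF remodeller, at 0.54, and the acetyltransferases CREBBP and EP300 had 1.83 and 1.62.

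Among the other protein-coding genes with the largest enrichment were BCL9L, a Wnt coactivator, at a log2 fold change of 2.89, PRR12 at 2.80, the synaptic scaffold BSN at 2.71, MN1 at 2.68, the mucin MUC16 at 2.66, the synaptic scaffold DLGAP2 at 2.65 and the microtubule-associated protein MAP1A at 2.60. MUC16, whose canonical transcript is 43816 bases long, had 67.8, 121 and 94.3 CPM in granule and 16.2, 18.7 and 9.57 CPM in cytosol libraries.

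Long transcripts usually described as rich in stress granules were called higher in 13 of 13 cases, 8 of them beyond 2-fold, with a median log2 fold change of 1.37. AHNAK, a giant scaffold protein (ENSG00000124942, chr11:62433542-62556235, minus strand), had 772, 523 and 888 CPM in granule and 221, 95.8 and 154 CPM in cytosol libraries. Replicate 2 was the lowest in both fractions and the groups did not overlap, with a log2 fold change of 2.21 (SE 0.355, adjusted p 9.46e-06). DYNC1H1, the heavy chain of cytoplasmic dynein, had 2480.0, 2991 and 3049.5 CPM in granule and 1233, 1065 and 1149 CPM in cytosol libraries, a smaller log2 fold change of 1.31 (SE 0.233) whose excess over 2-fold was not called. NORAD, a long noncoding RNA that binds Pumilio proteins (ENSG00000260032, chr20:36045618-36051018, minus strand), had 585, 607 and 644 against 271, 279.7 and 282 CPM, a log2 fold change of 1.14 (SE 0.190, adjusted p 5.55e-06).

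Giant cytoskeletal linkers, ubiquitin ligases and kinases of the PI3K-like family were called higher in 21 of 23 cases and lower in 0, with a median of 1.07. SPTAN1, a spectrin that lines the cell membrane, had 706, 886 and 948 CPM in granule and 288, 251 and 242 CPM in cytosol libraries, a log2 fold change of 1.70 (SE 0.281). SMG1, a kinase of nonsense-mediated decay, and HERC2, a ubiquitin ligase, had log2 fold changes of 1.59 and 1.55. The checkpoint kinase ATR (0.02) and the actin linker FLNA (0.21) were not called. Long mRNAs of secreted and membrane proteins, which are translated at the endoplasmic reticulum, were called higher in 33 of 47 cases and lower in 1 (the integrin ITGA6, -0.59), with a median of 0.84. IGF1R, the receptor of insulin-like growth factor 1, had 680.5, 666 and 715 CPM in granule and 218, 161 and 147 CPM in cytosol libraries, a log2 fold change of 1.97 (SE 0.306, adjusted p 4.58e-06). CELSR2 and CELSR3, adhesion receptors of planar cell polarity, had 2.13 and 1.84.

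The opposite pole was held by mRNAs of ribosomal proteins and of the respiratory chain, with median canonical transcripts of 887 and 763 bases. All 75 tested ribosomal protein genes were called lower in the granule fraction, 74 beyond 2-fold, with a median log2 fold change of -3.06. RPL12, of the large ribosomal subunit (ENSG00000197958, chr9:127447674-127451406, minus strand), had 23.9, 26.3 and 27.6 CPM in granule and 419, 447 and 525 CPM in cytosol libraries, a log2 fold change of -4.16 (SE 0.194, adjusted p 3.42e-16). RPS13, of the small subunit, had 14.2, 15.1 and 14.8 against 238, 288 and 301 CPM and a log2 fold change of -4.23. In both genes the replicates of a fraction lay close together and far from those of the other fraction. Translation factors with a 5′ terminal oligopyrimidine tract or a like role had a median canonical transcript of 3684 bases, against 3429.5 over protein-coding genes. They were lower in 17 of 18 cases (median -1.75). Among them EEF1A1, the elongation factor that brings aminoacyl-tRNA to the ribosome, had 608, 644 and 632 CPM in granule and 3492, 3813 and 4453 CPM in cytosol libraries, a log2 fold change of -2.64 (SE 0.203).

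Nuclear-encoded subunits of the respiratory chain and ATP synthase were lower in 59 of 59 cases, 54 beyond 2-fold, with a median of -2.70. NDUFA4, a small subunit of the respiratory chain (ENSG00000189043, chr7:10931943-10940153, minus strand), had 5.17, 4.67 and 4.69 CPM in granule and 79.9, 97.2 and 112 CPM in cytosol libraries, a log2 fold change of -4.31 (SE 0.213, adjusted p 7.30e-16). COX5B, of cytochrome c oxidase, had 4.81, 5.02 and 4.35 against 69.7, 90.4 and 88.7 CPM and -4.13. ROMO1, a small mitochondrial membrane protein, had 2.46, 2.11 and 2.33 against 46.5, 55.3 and 54.6 CPM, and its log2 fold change of -4.50 was the lowest among the protein-coding genes that the naming rule admits. The other short mRNAs at this end were UBL5 (-4.24), a ubiquitin-like splicing protein, SMIM30 (-4.21), ATP5MK (-4.18) of ATP synthase and the histone H2AC20 (-4.04).

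Histone genes, whose main mRNAs lack a poly(A) tail, were lower in 41 of 43 cases (median -3.03). H3C2 had 31.9, 27.8 and 31.4 CPM in granule and 421, 486 and 501 CPM in cytosol libraries. Histone copies are nearly identical, so values of single histone genes are uncertain. Housekeeping mRNAs were lower in 22 of 22 cases (median -2.22), proteasome subunits in 27 of 29 (median -1.93) and glycolytic enzymes in 12 of 15 (median -1.11). GAPDH, a glycolytic enzyme (ENSG00000111640, chr12:6534512-6538374, plus strand), had 199, 232 and 242 CPM in granule and 1711, 1934 and 2049.5 CPM in cytosol libraries, a log2 fold change of -3.08 (SE 0.211, adjusted p 2.24e-13), and the cytoskeletal actin ACTB had 211, 354 and 316 against 790.2, 936 and 754 CPM (-1.49). The exceptions were PSMA1 (1.34) in the proteasome and LDHB (1.12) and HK2 (0.56) in glycolysis. PSMA1 and LDHB lie for 81.0% and 88.3% of their exon length within the span of another gene on the same strand, and the LDHB call was lost without cytosol replicate 3 (adjusted p 0.0714).

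Short RNAs made by RNA polymerase III, and their kin, were lower in 6 of 6 tested cases (median -3.04). In the replicate pairs, with 0.5 CPM added to each value, the medians were smaller in size, at -1.37, -1.87 and -1.84. RN7SL3, one of the copies of the signal recognition particle RNA (ENSG00000278771, chr14:49853616-49853914, minus strand), had 3.97, 3.59 and 3.24 CPM in granule and 192, 191 and 215 CPM in cytosol libraries. Its log2 fold change of -5.79 (SE 0.206, adjusted p 1.79e-18) was the lowest among all named genes, and its near-identical copy RN7SL1 had 98.0, 73.7 and 77.6 against 699, 693 and 821 CPM (-3.15), so the split of reads between the copies is uncertain. Host genes of small nucleolar RNAs, noncoding transcripts with a 5′ terminal oligopyrimidine tract in several cases, were lower in 15 of 15 cases (median -2.24). SNHG6, SNHG8 and SNHG19 had log2 fold changes of -3.54, -3.41 and -3.20.

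The mRNAs of stress granule proteins went in both directions, as did all genes tested (36.3% higher and 35.7% lower). Of 32 tested, 7 were higher, 9 were lower and 16 were not called, and the median of -0.07 changed sign with no low-count filter (0.03). G3BP1, the protein that nucleates these granules, had 439, 623 and 534 CPM in granule and 520.2, 669.8 and 575 CPM in cytosol libraries. These groups overlapped, with a log2 fold change of -0.15 (SE 0.159, adjusted p 0.417). The granule library was the lower in 3 of 3 same-numbered pairs, and the smallest adjusted p among the alternatives, in a fit of the 6 libraries with the replicate block, was 0.0536. TIAL1, the paralog of TIA1, had 80.8, 74.5 and 64.4 against 81.8, 70.3 and 61.3 CPM, also overlapping (0.04, SE 0.167, adjusted p 0.832), and this value took either sign among the alternatives. The higher members included the 3 long mRNAs of the PRRC2 family of translation-linked granule proteins. PRRC2A had 641, 940.1 and 926 CPM in granule and 240.3, 202 and 162 CPM in cytosol libraries, PRRC2B had 1400.3, 1649 and 1722 against 451, 414 and 354 CPM, and their log2 fold changes were 2.05 (SE 0.291) and 1.97 (SE 0.191), with 1.30 for PRRC2C. YBX1, a cold-shock RNA-binding protein, was at the low end with 122, 139 and 111 against 734, 921 and 888 CPM (-2.77, SE 0.171, adjusted p 2.71e-14).

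mRNAs of P-body proteins were spread over both directions, with 17 of 35 higher, 11 lower and a median of 0.15. Over all genes the shares were 36.3% higher and 35.7% lower. The long mRNAs of the microRNA effector complex were at the high end. AGO2, the Argonaute that can cut its target, had 532, 651 and 674 CPM in granule and 199, 169 and 154 CPM in cytosol libraries, a log2 fold change of 1.83 (SE 0.244, adjusted p 2.38e-07). Its scaffold partners TNRC6B and TNRC6C had 1.69 and 1.73, and the decapping factors DCP1A and DCP2 had 1.09 and 1.03. The mRNAs of the LSM ring, which activates decapping, were at the low end, from -2.69 for LSM7 to -0.81 for LSM6. LSM4 had -2.33 and LSM3 -2.32, with canonical transcripts of 1704 and 3359 bases, against 491 for LSM7.

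Of 11 tested nuclear long noncoding RNAs, 7 were called higher in the granule fraction and 2 lower, beside 36.3% and 35.7% of all genes. Their median of 0.61 was near the 0.56 of all 3313 tested genes annotated as lncRNA. NEAT1, the scaffold of nuclear paraspeckles (ENSG00000245532, chr11:65422774-65445540, plus strand), had 2131, 1596 and 2062 CPM in granule and 247, 161 and 209.9 CPM in cytosol libraries, a log2 fold change of 3.23 (SE 0.339, adjusted p 9.40e-09). KCNQ1OT1, an antisense RNA of imprinting, had 110.0, 95.9 and 66.1 against 27.5, 24.7 and 18.8 CPM (1.94). MALAT1, an RNA of nuclear speckles, had 681, 469 and 506 against 522, 370.0 and 418 CPM, with overlapping groups and no call (0.34, SE 0.247, adjusted p 0.22). It was called higher with no low-count filter (adjusted p 0.0252) and in a fit of the 6 libraries with the replicate block (0.00492). Summed over the 16 listed nuclear RNAs, the level was 3317 to 4132 CPM in granule and 1123 to 1425 CPM in cytosol libraries. NEAT1 alone supplied 1596 to 2131 CPM of the granule sums and 161 to 247 CPM of the cytosol sums. The part of nuclear RNA in the other differences was not tested.

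Of all 3313 tested genes annotated as lncRNA, 1497 were higher and 755 lower, with a median log2 fold change of 0.56 against -0.04 for 13584 protein-coding genes. Besides NEAT1, the highest named lncRNAs were CYP4F26P (3.42), which lies wholly within another gene on the same strand, LINC00342 (2.63), LINC02641 (2.52) and DANT2 (2.33). LINC00342 had 68.4, 59.7 and 56.3 CPM in granule and 12.6, 8.58 and 8.62 CPM in cytosol libraries. Besides SNHG genes, ZNF232-AS1 (-3.65) and GIHCG (-3.05) were at the low end. Across lncRNAs the enrichment followed the span of the gene in the genome (Spearman rho 0.46 over 3313 genes) and hardly the length of the longest transcript (rho 0.05).

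The counts appear to have been made over whole gene spans. Of 258 protein-coding genes whose exons lie inside the span of another gene on the same strand without exon overlap, 234 (90.7%) had at most 30 counts over the 30 libraries, against 20.1% of 15925 genes with no overlap. TIA1 itself has 99.3% of its exon length within another gene's span and 3.19% within its exons. Intron reads may thus be part of a gene's value, and their share was not measured.

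RNAs of the mitochondrial genome gave mixed values. Of 15 tested, 3 were called higher, 1 lower and 11 not, with a median of 0.49, and the 3 replicate pairs had medians of -0.05, 0.15 and 1.18. MT-ND5, of respiratory complex I, had 41.0, 56.8 and 95.3 CPM in granule and 16.1, 14.4 and 15.7 CPM in cytosol libraries, so that granule replicate 3 was the highest (2.07, SE 0.647, adjusted p 0.00895). MT-CYB (1.44) and MT-ND6 (1.70) were called as well, but the count of higher members ran from 1 with no low-count filter to 6 with only the 6 libraries fitted. Both calls were lost with no low-count filter, without granule replicate 3 and without any 1 of the cytosol replicates, with adjusted p of 0.0551 to 0.153 for MT-CYB and 0.0502 to 0.0744 for MT-ND6. The MT-CYB call was also lost without granule replicate 2 (0.0592) and with the replicate block (0.0541). MT-CO3, of cytochrome c oxidase, was lower, with 102, 98.3 and 124 against 293, 274 and 339 CPM (-1.48, adjusted p 0.00158).

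Immediate early genes, which cells switch on within minutes of a stimulus, went both ways. Of 37 tested, 9 were higher and 12 lower, with a median of -0.14, beside 36.3% higher and 35.7% lower over all genes. DUSP8, a phosphatase of stress kinases, had 50.7, 39.0 and 51.7 CPM in granule and 10.6, 7.75 and 9.93 CPM in cytosol libraries, a log2 fold change of 2.32 (SE 0.193, adjusted p 1.42e-11). EGR1, a zinc-finger transcription factor, had 265, 323 and 309 against 198, 156 and 136 CPM (0.87, adjusted p 0.000176). FOS, a part of the AP-1 transcription factor, had 57.2, 115 and 68.3 against 121, 199 and 112 CPM, lower on average with overlapping groups (-0.84, SE 0.239, adjusted p 0.00306). Replicate 2 was the highest of both fractions for FOS.

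Heat shock genes, the chaperones of misfolded protein, were lower in 12 of 17 cases and higher in 0 (median -1.05). With only the 6 libraries fitted, 15 of 17 were lower. Over all genes 35.7% were lower and 36.3% higher, to be read beside each list of this paragraph. The chaperone HSPA8 had 349, 594 and 369.7 CPM in granule and 1094, 1751 and 1325 CPM in cytosol libraries (-1.67, adjusted p 1.46e-07), while the stress-induced HSPA1A and HSPA1B (-0.42 and -0.38) were not called. mRNAs of the translocon, signal peptidase and other machinery of the endoplasmic reticulum were lower in 30 of 35 cases (median -1.33), SEC61G with 3.38, 2.67 and 2.50 against 36.7, 47.9 and 46.2 CPM (-3.94). The 1 member called higher was SSR1 (0.52), whose call was lost without cytosol replicate 3 or granule replicate 2 (adjusted p 0.0623 and 0.0792). SR proteins and CLK kinases of splicing were lower in 14 of 19 cases (median -0.79), with SRSF7 at -2.20 and SRPK2 alone higher at 0.99.

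Centrosome genes and zinc finger genes were called in both directions in like numbers, as were all genes tested (36.3% higher and 35.7% lower). Of 37 centrosome genes 13 were higher and 12 lower (median 0.08), from CEP250 at 1.71 and PCNT at 1.48 to CEP55 at -1.62. Of 425 ZNF genes 128 were higher and 129 lower, with a median of -0.03 that turned positive with RLE factors (0.02) and with library size alone (0.04). ZNF805 (2.03) and ZNF618 (2.07) were among the higher genes, and ZNF32 (-2.66) and ZNF593 (-2.56) among the lower.

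**Figure D2:**
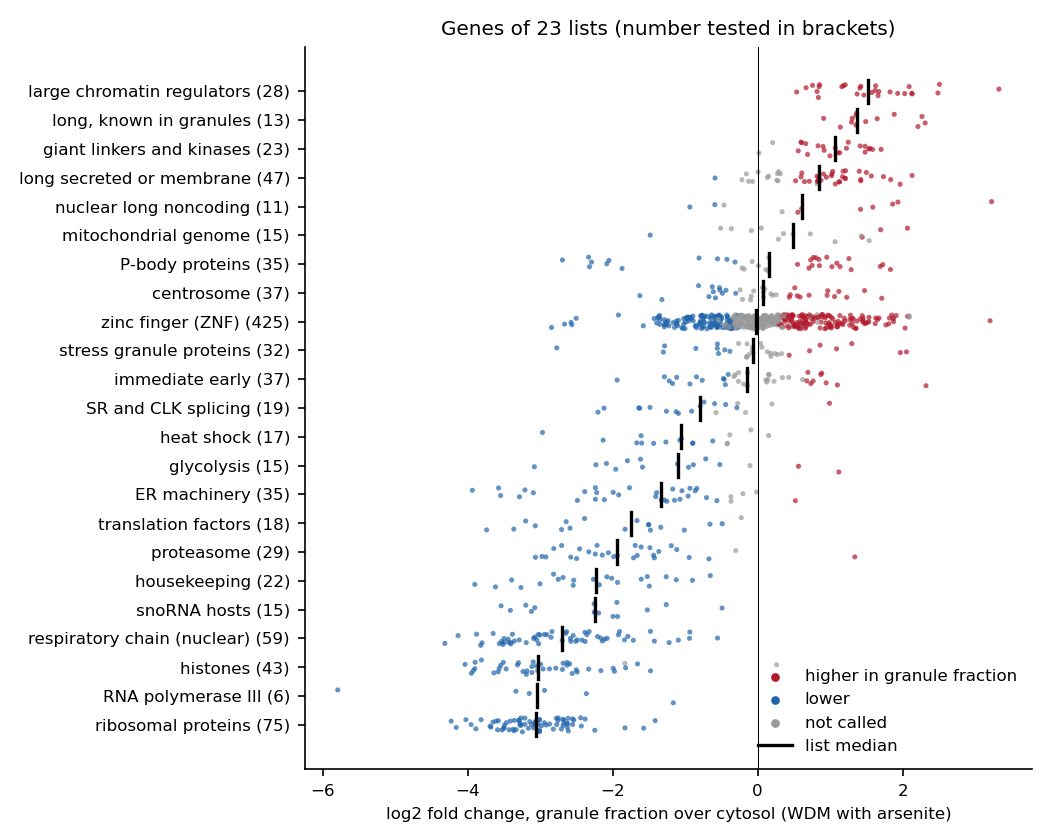
Log2 fold change of every tested gene of 23 lists, granule fraction over cytosol in WDM cells with arsenite. Each point is a gene (red higher, blue lower, grey not called), black bars are list medians, and numbers in brackets are genes tested. Medians run from -3.06 for ribosomal proteins to 1.52 for large chromatin regulators.

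Enrichment rose with transcript length among protein-coding genes. The 13584 genes were put into 10 equal groups by their longest transcript, and the median log2 fold change rose in every step, from -1.51 in the shortest group (median 1221 bases) through -0.08 in group 6 (4246 bases) to 0.87 in the longest (10137 bases). In the shortest group 13.5% of genes were higher and 70.7% lower, and in the longest 74.6% were higher and 8.98% lower. The step was there in each replicate pair, with medians of -1.26, -1.35 and -1.37 in the shortest group and 0.69, 0.89 and 0.87 in the longest. The list counts above can be read against these shares: all 28 chromatin regulators (median canonical transcript 8890 bases) and 21 of 23 giant linkers and kinases (13459 bases) were higher.

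The measure of length mattered. With the median length of a gene's annotated transcripts in place of the longest, the 10 groups ran from -0.10 down to -0.53 in group 4 and up to 0.67, so the difference between the end groups fell from 2.38 to 0.77. Across genes, Spearman rho with enrichment was 0.48 for the longest transcript, 0.52 for the canonical transcript, 0.46 for its coding part, 0.32 for its 3′ UTR and 0.51 for the span of the gene. These points share their libraries, and the measures are related to each other. Genes with 1 exon have no introns. Over 315 such protein-coding genes rho with length was 0.58. In 3 groups of 105 the medians were -2.24, -0.62 and 0.12, at median lengths of 724, 2074 and 4112 bases. Histone genes such as H3C2 and H2AC20 have 1 exon in their canonical transcript. The 43 tested histone genes had a median length of 486 bases and a median log2 fold change of -3.03. Their share of the shortest group was not measured. Processed pseudogenes, which are intronless copies of mostly short mRNAs and can take reads of their parent genes, had a median of -1.77 over 404 genes.

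**Figure D3:**
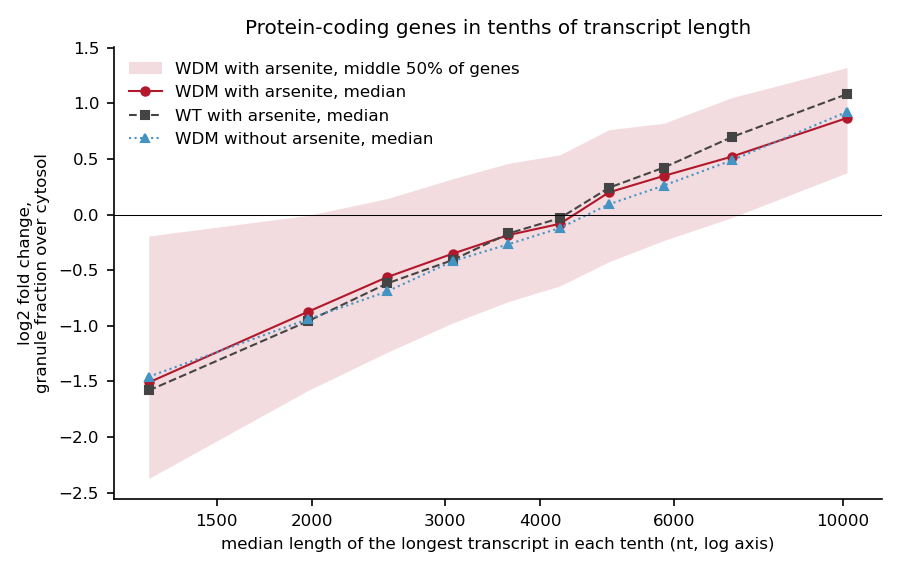
Median log2 fold change, granule fraction over cytosol, of protein-coding genes in 10 equal groups of transcript length, against the median length of each group (log axis). Red circles are WDM with arsenite with the middle 50% of genes shaded, black squares WT with arsenite and blue triangles WDM without arsenite, and the red line rises from -1.51 to 0.87.

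At a given length, GC-rich transcripts were higher and U-rich 3′ UTRs lower in the granule fraction. Each of the 10 length groups was divided into 5 equal parts. For U content, the 13053 genes with a 3′ UTR of at least 100 bases were put into 10 length groups of their own. Length is that of the longest transcript, while GC and U content are those of the canonical transcript. The part with the highest GC content lay above the part with the lowest in 10 of 10 length groups, by a median of 0.79 on the log2 scale. For the U content of the 3′ UTR, the part with the highest content lay below the part with the lowest in 10 of 10 groups, by a median of -0.49. Genes with a long span lay above those with a short span in 10 of 10 groups (median difference 0.77), and within 5 equal groups of coding length the longest 3′ UTRs lay above the shortest in 5 of 5 (1.04). The U content of the 3′ UTR had a median of 27.3% in genes more than 2-fold higher, 31.1% in those more than 2-fold lower and 30.1% in all.

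The same direction was found for GC content in the other comparisons when length was matched. The part with the highest GC content lay above the lowest in 10 of 10 length groups in WT with arsenite (median difference 0.29) and in 10 of 10 in WDM without arsenite (0.15). For the U content of the 3′ UTR, the highest part lay below the lowest in 5 of 10 groups in WT with arsenite (-0.0027) and in 7 of 10 in WDM without arsenite (-0.05). Without regard to length, across protein-coding genes, Spearman rho of enrichment with GC content was 0.11 in WDM with arsenite, -0.06 in WT with arsenite and -0.09 in WDM without arsenite. With the U content of the 3′ UTR it was -0.11, 0.05 and 0.05. These are weak correlations across genes that share libraries, and the differences between the comparisons were not tested.

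**Figure D4:**
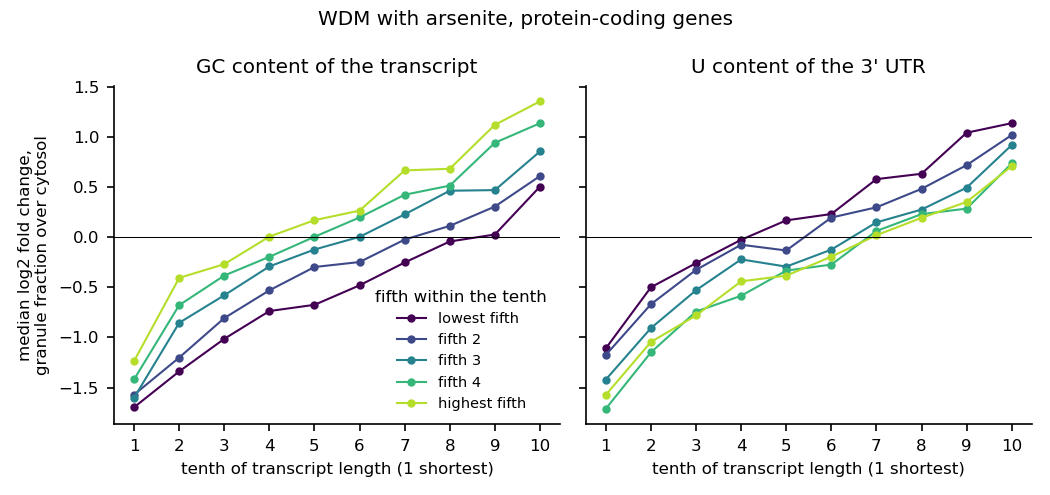
Median log2 fold change in WDM cells with arsenite against the group of transcript length (1 shortest, 10 longest), with genes of each length group divided into 5 parts by GC content of the transcript (left) or U content of the 3′ UTR (right). Dark lines are the lowest and yellow lines the highest content. The highest GC part lies above the lowest in 10 of 10 groups and the highest U part below the lowest in 10 of 10.

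Enrichment was then compared between the lines with arsenite, as the difference of the WDM and WT log2 fold changes, which uses 12 libraries and shares none between its sides. Of 18141 genes, 1 (0.00551%) had a greater enrichment in WDM at an adjusted p under 0.05 and 0 (0%) a lesser one (edgeR), while 1200 had an unadjusted p under 0.05. The 1 gene was CALCB, of the calcitonin gene-related peptide family (ENSG00000175868, chr11:14904997-15082342, plus strand). It had 27.5, 18.2 and 20.1 CPM in WDM granule and 12.1, 10.1 and 11.2 CPM in WDM cytosol libraries, and 5.58, 5.98 and 4.25 CPM in WT granule and 9.03, 8.65 and 7.33 CPM in WT cytosol libraries. Thus it was higher in granules in WDM (0.98) and lower in WT (-0.66), a difference of 1.64 (SE 0.255, adjusted p 0.0086), which missed the threshold without WT granule replicate 3 (0.0799). In WDM without arsenite it had 38.8, 28.9 and 32.0 CPM in granule and 10.9, 12.1 and 12.6 CPM in cytosol libraries (1.47), and the change with arsenite was not called (-0.50, adjusted p 0.143). S100A13 and ZFPM1 had the next smallest p, with differences of 1.21 and 1.29 that were not called (adjusted p 0.741 for both), and 88.1% of the exon length of S100A13 lies within another gene on the same strand.

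Most of these genes were also called in WT. Of the 1547 genes more than 2-fold higher in WDM granules, 1032 passed the same test in WT, which is 66.7% of the WDM list and 60.8% of the 1697 WT genes. Of the 2867 lower genes 2511 passed in WT, 87.6% of the WDM list and 88.4% of the 2839 WT genes, and 0 genes of either list were called in the opposite direction. Their median log2 fold changes were 1.75 in WDM and 1.68 in WT for the higher genes and -2.03 and -1.97 for the lower. KMT2D had 2.99 in WT, NEAT1 3.67, AGO2 2.11, RPL12 -4.21 and RN7SL3 -6.19. In the longest group of protein-coding genes the median was 0.87 in WDM and 1.08 in WT, and in giant linkers and kinases 1.07 and 1.48, with 0 of 23 called different between the lines.

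The pull-down from WDM cells without arsenite was measured the same way, and how much of it is background was not tested. The enrichment in WDM changed with arsenite in 4386 genes: it was greater in 1390 (7.66%) and less in 2996 (16.5%), by edgeR's test of the difference. Many of the enriched genes were already enriched without arsenite. Of the 1547 genes more than 2-fold higher with arsenite, 1031 passed the same test without it, 66.6% of that list and 35.6% of the 2894 genes higher without arsenite. Of the 2867 lower genes 2022 did, 70.5% of that list and 79.9% of the 2531 genes lower without arsenite. KMT2D had 1.82 without arsenite against 3.33 with it, a change that was not called (1.51, SE 0.581, adjusted p 0.0657), and NEAT1 had 3.58 against 3.23.

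NORAD was level or slightly lower in the pull-down without arsenite and higher with it. It had 323, 347 and 339.7 CPM in granule and 369, 423 and 362 CPM in cytosol libraries without arsenite, a log2 fold change of -0.19, against 1.14 with arsenite, a change of 1.33 (SE 0.267, adjusted p 0.000764). A like change was found in POFUT1, which adds fucose to Notch receptors, PTGFRN, a membrane protein of the immunoglobulin family, ASB1, DENND11 and ZCCHC24, the 5 genes with the smallest p in this direction. PTGFRN had 106, 136 and 134 CPM in granule and 204, 181 and 204 CPM in cytosol libraries without arsenite (-0.65) and 201, 251 and 270.1 against 125, 130.1 and 129 CPM with it (0.91), so the order of the fractions turned. POFUT1 went from -0.91 to 0.69, ASB1 from -0.19 to 1.14, DENND11 from -0.15 to 1.20 and ZCCHC24 from -0.08 to 1.42.

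Long mRNAs of secreted and membrane proteins held many genes of this kind. Of 47, 15 had a greater enrichment with arsenite and 1 a lesser one, beside 7.66% and 16.5% of all genes. The median of the list was 0.40 without and 0.84 with arsenite. The following members were chosen after their values were seen. IGF2R, the receptor that carries lysosomal enzymes, went from 0.08 to 1.40 (adjusted p of the change 0.000656), the insulin receptor INSR from 0.07 to 1.12 (0.0017), and the Notch receptor NOTCH1 from 0.42 to 1.57 (0.00539). The laminin chain LAMC1 went from -0.20 to 0.95 (0.000647) and the integrin ITGB1 from -1.30 to -0.13 (0.000708), the latter from depleted to not called.

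Giant linkers and kinases went the other way, with 0 of 23 greater and 9 less with arsenite, beside 7.66% and 16.5% of all genes. SPTAN1 had 2475, 5575 and 4405 CPM in granule and 382, 263 and 388 CPM in cytosol libraries without arsenite, a log2 fold change of 3.59, against 1.70 with it, a change of -1.89 (SE 0.390, adjusted p 0.00108). The granule libraries without arsenite all lay above those with it (706, 886 and 948 CPM), while the cytosol libraries of both treatments overlapped. Other linkers of actin, microtubules and the nuclear envelope, again chosen after their values were seen, had the same pattern: SPTBN1 went from 3.59 to 1.48 (adjusted p 0.000169), DST from 3.24 to 1.07 (5.83e-05) and SYNE2 from 3.39 to 0.83 (4.80e-05). Of the long granule transcripts, MACF1 (3.59 to 1.65, 0.000641) and PLEC (3.88 to 2.31, 0.01), which also link cytoskeletal fibres, changed likewise. All of these named linkers were still called higher in the granule fraction with arsenite. The listed giant linkers and kinases have a median span of 211140 bases. Between the longest and shortest spans of a length group, the median difference was 1.52 without arsenite and 0.77 with it. The part of gene span in these changes was not tested.

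In several depleted groups many genes were more depleted with arsenite. The log2 fold change was called less with arsenite in 57 of 75 ribosomal protein genes, whose median went from -2.19 to -3.06. The same held for 12 of 15 hosts of small nucleolar RNAs (-1.25 to -2.24), 18 of 59 respiratory chain genes and 14 of 43 histone genes. Over all genes the share was 16.5%. SNHG1 (ENSG00000255717, chr11:62851984-62855953, minus strand) had 96.1, 96.2 and 87.3 CPM in granule and 86.6, 98.8 and 97.4 CPM in cytosol libraries without arsenite (-0.02) and 33.4, 30.8 and 24.0 against 116, 156 and 148 CPM with it (-2.25), a change of -2.23 (SE 0.219, adjusted p 3.37e-07). RN7SL3 went from -3.08 to -5.79 (adjusted p 1.42e-07). ORC5 of the origin recognition complex, the splicing factor PRPF39 and the centriole gene CEP295, the others of the 5 genes with the smallest p, went from 0.02, 0.54 and 1.14 to -1.67, -1.16 and -0.52. TIAL1 was enriched without arsenite (1.42) and not called with it (0.04, adjusted p of the change 0.000233). In the mitochondrial genome the median was 2.47 without arsenite and 0.49 with it, though only MT-CO1 and MT-CO3 were called changed.

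**Figure D5:**
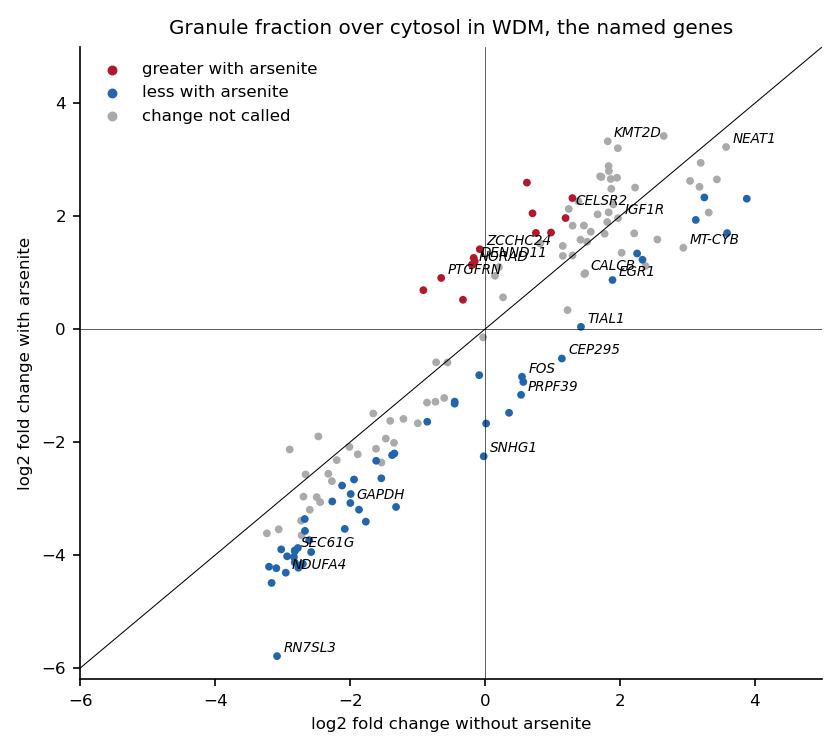
Log2 fold change, granule fraction over cytosol, of the 140 named genes in WDM cells without arsenite (horizontal) and with arsenite (vertical), with the line of equal values. Red genes had a greater and blue genes a lesser enrichment with arsenite, grey genes were not called changed, and SNHG1 lies at -0.02 without and -2.25 with arsenite.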

How the data were processed

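Stranded total RNA depleted of ribosomal RNA was sequenced from granule and cytosol fractions, per the labels' protocols. The deposited table holds raw read counts per gene, and the submitters' processing notes name Trimmomatic, STAR, Picard, featureCounts and GRCh38 without roles or settings. Of 60664 identifiers, 60463 were found in GENCODE v44, the source of names, coordinates and transcript sequences.

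The counts were fitted in edgeR 4.0.16 (R 4.3.3) with TMM factors and robust quasi-likelihood tests over the 24 libraries of tetracycline-treated cells, with 1 mean per group. Genes passed filterByExpr with a minimum count of 10 and a minimum total of 15, which kept 18141. p-values were adjusted over all of them by Benjamini-Hochberg, and glmTreat tested differences against a log2 fold change of 1. The 2 interaction contrasts compared enrichments between lines and between treatments. The fit was tested on simulated data with 200 changed genes. CPM values are scaled by TMM factors. DESeq2 1.42.0, other scalings, no low-count filter, fits of fewer libraries and leaving out each library were alternatives.

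The members and lists were chosen with earlier results of these data known. Named genes were those with the largest and smallest log2 fold changes, overall and in each list, those with the smallest p of each interaction and 13 always named. Same-numbered granule and cytosol libraries deviated together in WDM with arsenite (correlations of 0.35, 0.56 and 0.31), a pairing read from the data and not stated in the labels. It was not found in each pair of WT with arsenite or of WDM without arsenite, whose lowest correlations were 0.06 and -0.03.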

Additional observations from a re-analysis of the deposited data

Results flagged for a closer look

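The enrichment of CALCB differed between the lines with arsenite by 1.64 on the log2 scale, by edgeR's test of the difference over all genes (adjusted p 0.0086). In WDM cells with and without arsenite, the enrichment differed in 4386 genes by the same kind of test.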

How the results depend on the processing

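The 13065 genes called between fractions became 13170 with RLE factors, 13103 with library size alone, 13900 with no low-count filter, 12419 with only the 6 libraries and 12932 with DESeq2, and 12143 to 12731 when 1 library was left out. With the replicate block they became 13614, and 13990 with the 6 libraries alone. Under each of these alternatives 0 of the called genes were called in the opposite direction. Differences beyond 2-fold numbered 4414, 3671 to 4800 with 1 library left out, 4822 with the replicate block, 5207 with the block in the 6 libraries alone and 2965 with DESeq2, whose 864 higher genes compare with 1547 in edgeR. The line difference gave 0 genes without WT granule replicate 3, 2 without WDM cytosol replicate 2 and 1 in every other fit. The arsenite change gave 3134 to 4561 genes with 1 library left out, 5321 with the replicate block and 3593 with no low-count filter, where the share of greater enrichments was 43.0% against 31.7%. Over all genes the median difference moved on the log2 scale from 0.06 to 0.10 with RLE factors and 0.12 with library size alone. Of 140 named genes, 6 changed their call under some alternative (HCG18, MALAT1, SSR1, LDHB, MT-CYB and MT-ND6), and MT-CYB alone did so with the replicate block in the fit of 24 libraries. Depth limits low genes: 3 counts correspond to 0.101 to 0.219 CPM.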
